A study of Homo sapiens with 6 samples.

Results

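The genes described here are 10 components of interleukin-6 family signalling: the ligands IL6, LIF, IL11 and CLCF1, the receptor chains IL6ST (gp130), LIFR and OSMR, the kinase JAK1, the transcription factor STAT3 and the feedback inhibitor SOCS3. They were taken by symbol from a table of 61895 rows, and each symbol matched 1 Ensembl gene. The table holds RNA-seq values from 6 libraries of cells labelled as PC3, a human prostate cancer line grown in serum-containing medium and infected with lentivirus. In 3 libraries (shCTSZ) a stably selected short hairpin RNA targeted CTSZ, which encodes the lysosomal protease cathepsin Z, and 3 libraries (shControl) came from stably selected cells with the control vector. The study asked how CTSZ acts on cytokine secretion, and only RNA was measured in these files. The control is a vector marked NC, and neither the number of hairpins nor the origin of replicate libraries in separate cultures is given, so a p-value here reflects the scatter among these libraries alone, which may be technical.

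Nearly all cytokines of this family act through the shared receptor chain gp130. IL-6 and IL-11 first bind their own alpha chains, whereas LIF pairs gp130 with LIFR, and oncostatin M pairs it with OSMR or LIFR. The paired chains activate JAK kinases, which phosphorylate STAT3, and STAT3 induces SOCS3, an inhibitor that binds gp130 and JAK and shuts the signal down. In prostate cancer IL-6 is known as an autocrine and paracrine growth and inflammatory factor.

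Values are TPM, a share of each library's transcripts that is scaled for transcript length, so levels can be compared between genes. TPM keeps no read totals, the depth behind a value is therefore unknown, and counting intervals cannot be stated. Differences are log2 fold changes of TPM + 1, shCTSZ against shControl, from a limma fit over the 14874 rows that average 1 TPM or more, all 10 members among them; they understate the change of low genes. "Rose" and "fell" are used for a Benjamini-Hochberg adjusted p under 0.05 in that fit. In bulk RNA, fewer cells expressing a gene and less RNA per cell cannot be told apart.

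CTSZ itself fell from 92.8 ± 2.1 to 19.9 ± 1.7 TPM (SD, n = 3 per group), so the labels of the groups held for the targeted gene. The label of the cell line did not hold for several genes. PC3 is known as a line without STAT3, without the caveolar coat gene CAVIN1 that lies beside it, and without the alpha-catenin gene CTNNA1. Here STAT3 was listed at 37.5 to 45.8 TPM and CAVIN1 at 64.4 to 104 TPM over the 6 libraries. CTNNA1 held 263 to 282 TPM, and it was looked up after the values of STAT3 had been seen. Of 6 epithelial markers, the keratins KRT8 and KRT18 were abundant in every library, with group means of 1256 to 3859 TPM. The others were scarce: EPCAM did not exceed 0.22 TPM, CLDN4 2.15 TPM, CDH1 2.59 TPM and KRT19 3.64 TPM in any library. Marker lists of macrophages, fibroblasts, endothelium and lymphocytes summed to between 0 and 2.38 TPM per library. KLK3, AIF1, DCN, LUM and KDR were listed at 0 in all libraries. Mitochondrial transcripts took 5.10% to 5.38% of TPM in shControl and 6.24% to 6.38% in shCTSZ, and their part in the results was not tested. The identity of the cells was not tested, and they are called the shControl and shCTSZ cells below.

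The promoters of IL6, IL6ST and OSMR are shown first because these are the 3 members that rose or fell and have an entry in the RefSeq promoter table (LIF has none). Each line is the 250 bases before the RefSeq gene start, 5′ to 3′ on the gene's strand, with matches to any of 6 motifs in capitals. The windows are chr7:22726950-22727199 on the plus strand for IL6, chr5:55994964-55995213 on the minus strand for IL6ST and chr5:38845762-38846011 on the plus strand for OSMR (GRCh38.p14).
IL6: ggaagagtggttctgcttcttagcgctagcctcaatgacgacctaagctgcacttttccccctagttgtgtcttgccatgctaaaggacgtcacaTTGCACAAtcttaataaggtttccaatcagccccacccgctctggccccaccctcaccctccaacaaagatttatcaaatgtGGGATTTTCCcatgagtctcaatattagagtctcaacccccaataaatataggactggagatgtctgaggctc
IL6ST: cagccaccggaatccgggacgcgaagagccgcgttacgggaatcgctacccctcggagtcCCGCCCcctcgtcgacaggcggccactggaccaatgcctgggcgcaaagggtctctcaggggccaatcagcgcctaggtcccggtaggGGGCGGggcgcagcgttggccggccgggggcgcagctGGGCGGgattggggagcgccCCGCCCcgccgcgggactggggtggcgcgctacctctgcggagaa
OSMR: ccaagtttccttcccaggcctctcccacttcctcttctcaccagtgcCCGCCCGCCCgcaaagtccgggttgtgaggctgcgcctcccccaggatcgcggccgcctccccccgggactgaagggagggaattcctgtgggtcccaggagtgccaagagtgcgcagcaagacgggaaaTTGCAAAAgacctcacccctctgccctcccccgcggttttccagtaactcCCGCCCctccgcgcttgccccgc

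The motifs were searched on both strands: STAT (TTCNNNGAA), C/EBP (TTNNGNAA), AP-1 (TGANTCA), the NF-kB motif, the GC box (GGGCGG) and a TATA box (TATAAA). Letters are given as they stand in the windows, where a match on the other strand reads as the reverse complement, and among these matches only 2 of the OSMR GC boxes overlap each other. The IL6 window held 1 C/EBP match (TTGCACAA) that starts 155 bases before the gene start and 1 NF-kB match (GGGATTTTCC) that starts 73 bases before it. Of 35116 RefSeq promoter windows of this length, with some genes entered by several starts, 33.2% held a C/EBP match and 5.21% an NF-kB match. The IL6ST window held 4 GC boxes and none of the other motifs, and 73.6% of its bases were G or C, against 47.6% in the IL6 window. The OSMR window held 3 GC boxes and a C/EBP match (TTGCAAAA) that starts 73 bases before the gene start, with 66.4% G or C. GC boxes were found in 42.6% of all windows. No STAT match lay in these 3 windows, and 6.57% of all windows held one, so 3 windows are too few for a comparison. The window of LIFR, which is not printed, held a STAT match (TTCCTTGAA). A match is a run of letters and no evidence of binding.

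Of 4 ligands 2 fell in the knockdown, and of 3 receptor chains 2 rose. The most abundant ligands, IL6 and LIF, fell to 84.4% and 82.6% of their shControl means, and LIF did not pass the threshold in the trend-removed fits described below. The ligands IL11 and CLCF1 overlapped between the groups, and the chain LIFR did not pass. The shared chain IL6ST and the oncostatin M receptor OSMR rose to 163.3% and 143.2%. The kinase JAK1 and STAT3 (each at 112.8% of the shControl mean) and SOCS3 (92.5%) did not pass the threshold. In all, 2 of 10 members rose and 2 fell, where 34.5% of all tested genes passed the threshold (19.8% higher and 14.7% lower), so the share of members that changed was near that of all genes. Of all genes that passed, 57.4% were higher, and 48.1% were under median-of-ratios scaling. The groups did not overlap for 8 of 10 members, against 50.3% of all tested genes. These 8 include LIFR, which reached the mean needed for the test only through the shCTSZ libraries.

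**Figure D1:**
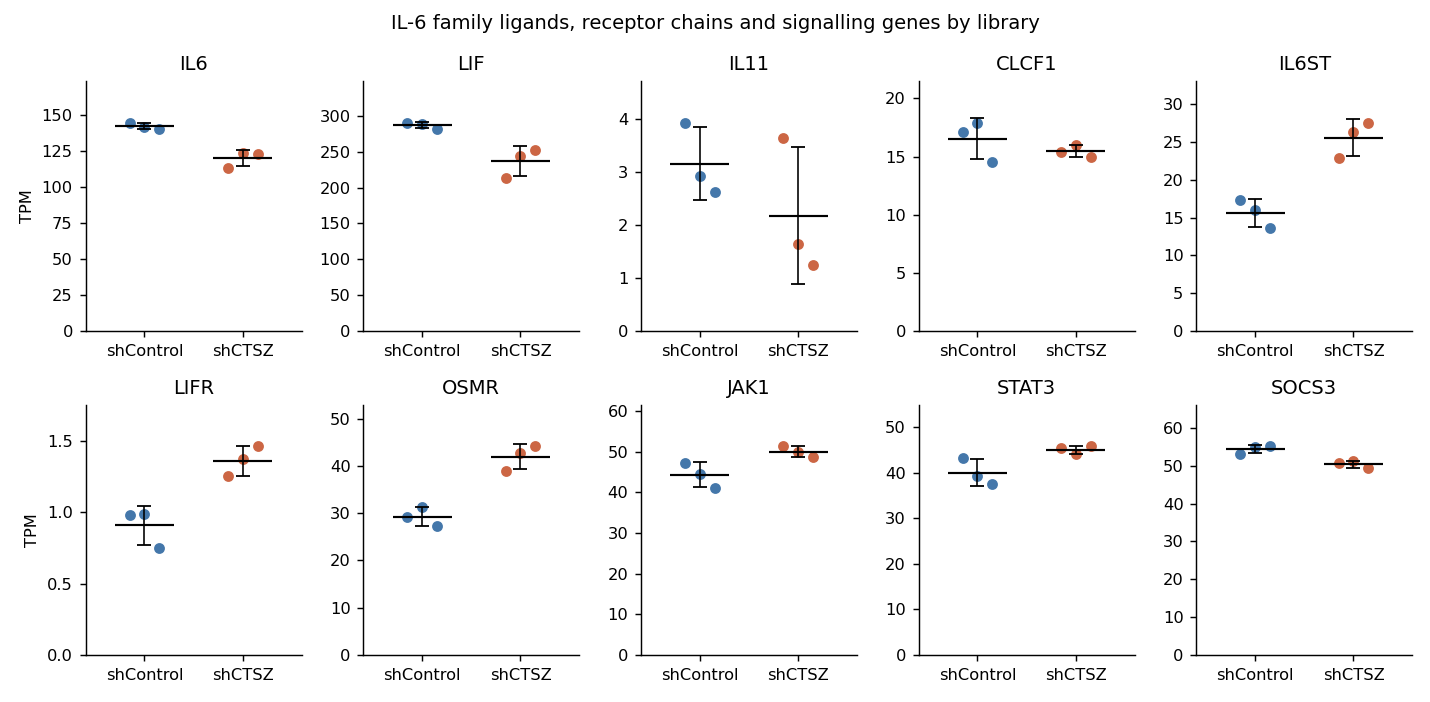
TPM of each member in every library (points), with the mean (line) and SD (bars) of 3 libraries per group; each panel has its own linear axis from 0. IL6 and LIF are lower in every shCTSZ library, IL6ST, LIFR and OSMR are higher in every shCTSZ library, and IL11 and CLCF1 overlap.

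Among the ligands, LIF, which maintains stem cells and acts on many tissues, was the most abundant (ENSG00000128342, GRCh38 chromosome 22, 30240447 to 30246851, minus strand). LIF was listed at 290, 288 and 282 TPM in shControl and at 213, 245 and 253 TPM in shCTSZ. All 3 shCTSZ libraries lay below all 3 shControl libraries, and shCTSZ replicate 1 was the lowest. The mean fell from 287 ± 4.5 to 237 ± 21 TPM (log2 fold change -0.28, SE 0.063, limma adjusted p = 0.0144). The call of LIF was lost after the dependence of each library on GC content and transcript length had been taken out (the trend-removed fit below; log2 fold change -0.18, adjusted p = 0.0986; over all alternatives 0.0049 to 0.0986). The antisense gene LIF-AS2, which overlaps LIF, was listed at 4.45 to 5.39 TPM in shControl and 1.95 to 3.24 TPM in shCTSZ, and without strand the 2 cannot be told apart.

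IL6, the founding inflammatory cytokine of the family (ENSG00000136244, chromosome 7, 22725884 to 22732002, plus strand), was listed at 145, 142 and 141 TPM in shControl. In shCTSZ it held 114, 124 and 123 TPM. The groups did not overlap, and replicate 1 was again the lowest of the knockdown libraries. The mean fell from 143 ± 2.2 to 120 ± 5.8 TPM (log2 fold change -0.24, SE 0.044, 95% interval -0.35 to -0.14, limma adjusted p = 0.00613). IL6 passed the threshold under all 16 alternatives that were run (adjusted p 0.00173 to 0.0255). Its level exceeded that of 92.9% of the tested genes in shControl, and that of LIF 97.0%.

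CLCF1, a neurotrophic and B cell stimulating ligand of the CNTF receptor (ENSG00000175505, chromosome 11, 67364168 to 67374177, minus strand), was listed at 17.2, 17.9 and 14.5 TPM in shControl and 15.4, 16.0 and 15 TPM in shCTSZ. The groups overlapped (log2 fold change -0.09, 95% interval -0.29 to 0.12, limma adjusted p = 0.472), and the sign turned with the GC and length trend removed (0.07). CLCF1 overlaps ENSG00000256514 on the same strand, which was listed at 22.6 to 38.3 TPM in shControl and 20.2 to 26.3 TPM in shCTSZ, above CLCF1 in every library, and how reads were shared out among the pair is uncertain. On the other strand it overlaps RAD9A (16.9 to 24.7 TPM). IL11, a ligand known from bone and fibrosis (ENSG00000095752, chromosome 19, 55364389 to 55370463, minus strand), was listed at 3.93, 2.92 and 2.63 TPM in shControl and at 3.65, 1.64 and 1.25 TPM in shCTSZ. In IL11, shCTSZ replicate 1 lay within the shControl range, and the other two knockdown libraries lay below it. The fit gave a log2 fold change of -0.45 with a 95% interval from -1.12 to 0.22 (adjusted p = 0.263). Without shCTSZ replicate 1, IL11 passed the threshold (log2 fold change -0.76, adjusted p = 0.0368; over all alternatives 0.0368 to 0.566). Together the 4 ligands summed to 449 ± 8.7 TPM in shControl and 375 ± 25 TPM in shCTSZ.

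Of the receptor chains, IL6ST encodes gp130, the chain that IL-6, IL-11, LIF and CLCF1 all need (ENSG00000134352, chromosome 5, 55935095 to 55994993, minus strand). IL6ST was listed at 17.3, 16.0 and 13.7 TPM in shControl and at 22.9, 26.3 and 27.5 TPM in shCTSZ. Every shCTSZ library lay above every shControl library. The mean rose from 15.7 ± 1.8 to 25.6 ± 2.4 TPM (log2 fold change 0.68, SE 0.104, 95% interval 0.43 to 0.92, limma adjusted p = 0.00353), and 3.3% of all tested genes had a higher log2 fold change. With the trend over GC content and length removed the log2 fold change was 0.61, or 0.49 with the longest transcript of each gene.

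OSMR, the chain that gives oncostatin M its own receptor (ENSG00000145623, chromosome 5, 38845858 to 38945596, plus strand), was listed at 29.3, 31.3 and 27.4 TPM in shControl and 39.0, 42.8 and 44.2 TPM in shCTSZ. The groups did not overlap. The mean rose from 29.3 ± 2.0 to 42.0 ± 2.7 TPM (log2 fold change 0.50, SE 0.071, limma adjusted p = 0.00252). IL6ST and OSMR passed the threshold under all 16 alternatives run for each (adjusted p 0.00166 to 0.0179 and 0.00122 to 0.0123). OSMR overlaps RICTOR on the other strand (2.94 to 4.78 TPM).

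LIFR, the LIF receptor chain (ENSG00000113594, chromosome 5, 38474963 to 38608354, minus strand), was at the edge of measurement. Its values were 0.98, 0.99 and 0.75 TPM in shControl and 1.25, 1.37 and 1.46 TPM in shCTSZ. The groups did not overlap, but LIFR reached the mean of 1 TPM needed for the test only through the shCTSZ libraries, and it did not pass the threshold (log2 fold change 0.31, limma adjusted p = 0.215). Its ligands were more abundant than LIFR in every library, CLCF1 at 14.5 TPM or more and LIF at 213 TPM or more. The 3 receptor chains summed to 45.9 ± 3.6 TPM in shControl and 68.9 ± 5.2 TPM in shCTSZ.

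Downstream of the receptors, JAK1, the main kinase bound to gp130 (ENSG00000162434, chromosome 1, 64833229 to 64966504, minus strand), was listed at 47.2, 44.6 and 41.1 TPM in shControl and 51.3, 50.0 and 48.7 TPM in shCTSZ. STAT3 (ENSG00000168610, chromosome 17, 42313324 to 42388568, minus strand) was listed at 43.3, 39.3 and 37.5 TPM in shControl and 45.4, 44.2 and 45.8 TPM in shCTSZ. Both genes were higher in all 3 shCTSZ libraries than in any shControl library, yet each had a log2 fold change of 0.17 and missed the threshold (limma adjusted p = 0.0632 for JAK1 and 0.0665 for STAT3). The gap between the groups was narrow, since shControl replicate 1 was the highest control for both. Without that library both genes passed the threshold, JAK1 at a log2 fold change of 0.22 (adjusted p = 0.0375; over all alternatives 0.0375 to 0.473) and STAT3 at 0.23 (adjusted p = 0.0234; over all alternatives 0.0234 to 0.336).

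SOCS3, the feedback gene induced by STAT3 (ENSG00000184557, chromosome 17, 78356778 to 78360077, minus strand), was listed at 53.3, 55.1 and 55.1 TPM in shControl and at 50.7, 51.2 and 49.4 TPM in shCTSZ. The groups did not overlap, and the difference was small: the mean was 54.5 ± 1.1 against 50.4 ± 0.92 TPM (log2 fold change -0.11, 95% interval -0.21 to -0.01, limma adjusted p = 0.0776). SOCS3 passed the threshold under median-of-ratios scaling (log2 fold change -0.16, adjusted p = 0.0326; over all alternatives 0.0326 to 0.389). Its sign turned when the GC and length trend was removed (log2 fold change 0.08).

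**Figure D2:**
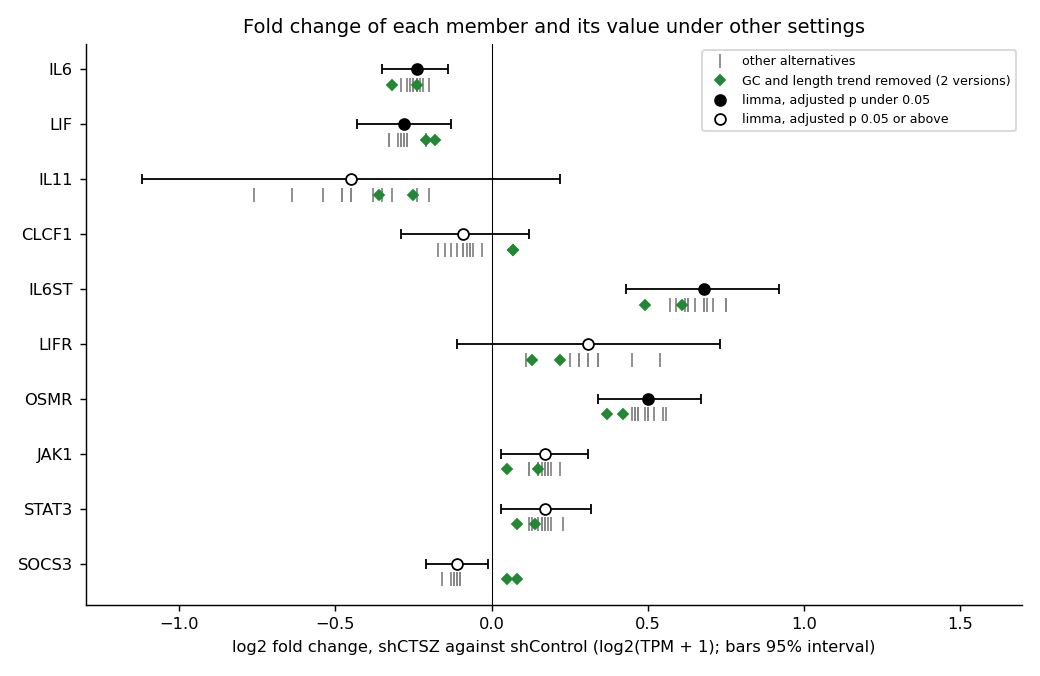
Log2 fold change of each member, shCTSZ against shControl, with its 95% interval (circles and bars; filled where the limma adjusted p is under 0.05). Below each, grey marks give the value under the other settings and green diamonds that with the GC and length trend removed; CLCF1 and SOCS3 cross 0 with that trend removed, and the other 8 members stay on their side of 0 under every setting run.

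Base composition moved with the fold changes of all genes, and the members differ in it. Over the tested genes divided into 5 equal classes by GC content, the median log2 fold change was 0.13 in the lowest class (28.7% to 42.7% GC) and -0.13 in the highest (58.9% to 79.3% GC). IL6ST and LIFR, each with a median transcript GC content of 40.2%, and OSMR with 44.8%, belong to the AT-rich classes. CLCF1 (59.5%), IL11 (62.9%) and SOCS3 (68.1%) belong to the highest class. LIF (58.8%) belongs to the class below it (52.8% to 58.9% GC), whose median log2 fold change was 0.00. IL6 was the member that went against this pattern: its transcripts have 45.8% GC, in a class whose median log2 fold change was 0.14, and it fell. With the trend over GC content and length removed, IL6ST, OSMR and IL6 (log2 fold change -0.32, adjusted p = 0.00326) passed the threshold. These were 3 of 10 members, against 30.3% of all genes tested in that fit (18.5% higher and 11.8% lower).

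**Figure D3:**
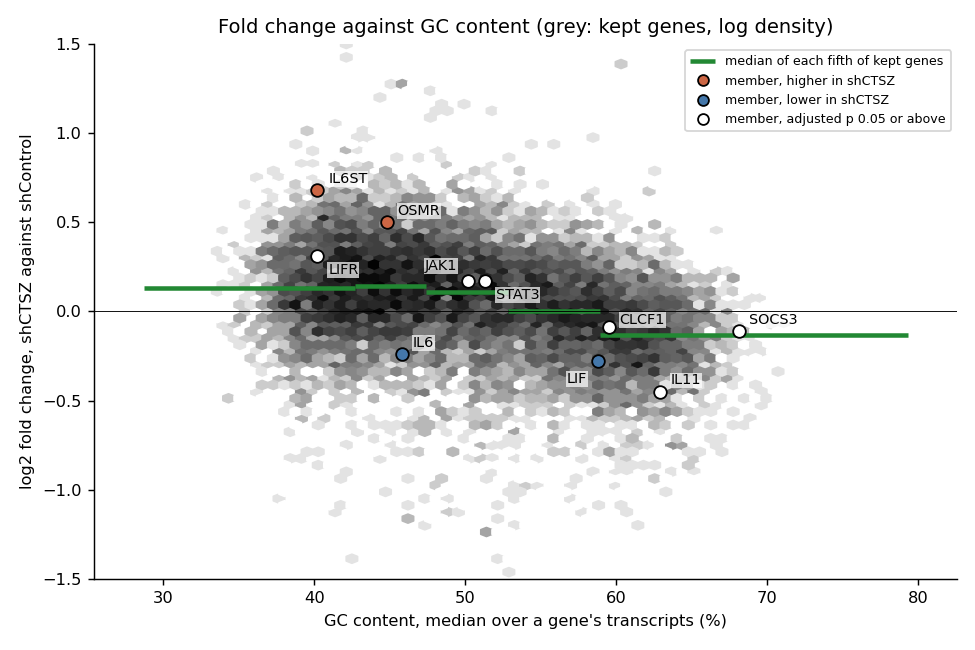
Log2 fold change of the tested genes (grey hexagons, darker with more genes on a log scale; values beyond 1.5 in either direction are not drawn) against GC content in percent, the median of each of 5 classes (green lines), and the 10 members (circles). IL6ST, LIFR and OSMR lie at low GC content and above 0, LIF, IL11, CLCF1 and SOCS3 at high GC content and below 0, and IL6 lies at low GC content and below 0.

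The order of levels changed at a few places. In shControl it ran LIF, IL6, SOCS3, JAK1, STAT3, OSMR, CLCF1, IL6ST, IL11 and LIFR, from a mean of 287 down to 0.907 TPM. Only the neighbours JAK1 and STAT3, and CLCF1 and IL6ST, had overlapping libraries in shControl. In shCTSZ, IL6ST (at least 22.9 TPM) lay above CLCF1 (at most 16.0 TPM) in every library, and SOCS3 overlapped with JAK1 and IL11 with LIFR. The highest OSMR library and the lowest STAT3 library of shCTSZ met at 44.2 TPM.

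Most of the remaining ligands of the family were scarce. OSM, CNTF, CTF1 and IL27 did not reach a mean of 1 TPM, IL31 was listed at 0 in every library, and so was CNTFR, the alpha chain for CNTF and CLCF1. IL6R, the IL-6 alpha chain, ranged from 1.05 to 1.82 TPM in shControl and from 1.16 to 3.27 TPM in shCTSZ, with overlapping groups. IL11RA, the IL-11 alpha chain, held 8.01 ± 0.28 and 8.18 ± 0.43 TPM (log2 fold change 0.03, 95% interval -0.15 to 0.21, limma adjusted p = 0.812). EBI3, a subunit of IL-27, fell from 9.61 ± 1.1 to 5.89 ± 0.89 TPM (log2 fold change -0.63).

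EBI3 lost its call in both trend-removed fits (0.0602 and 0.0723, with a lowest adjusted p of 0.00688 among its alternatives). Of 5 tested receptors and sheddases 1 rose and 1 fell, where 19.8% of all tested genes rose and 14.7% fell. ADAM10, a protease that sheds membrane proteins including IL6R, rose from 30.9 ± 4.4 to 48.8 ± 2.8 TPM (a log2 difference of 0.65, limma adjusted p = 0.00363). IL27RA, the alpha chain for IL-27, fell from 21.7 ± 0.56 to 17.4 ± 1.3 TPM (a log2 difference of -0.31, limma adjusted p = 0.0134), a call that was lost in the trend-removed fit with the longest transcript (adjusted p = 0.136, from 0.00578 upwards among its alternatives). ADAM17, the other sheddase, overlapped between groups (23.1 to 32.1 TPM).

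Among 6 tested JAK and STAT genes beside JAK1 and STAT3, 1 rose, where 19.8% of all tested genes rose. In the trend-removed fit none was higher and 1, STAT4, was lower (adjusted p = 0.0275, against 0.0545 in the fit used throughout). Of all genes in the trend-removed fit, 18.5% were higher and 11.8% lower. STAT5B, a neighbour of STAT3 on the chromosome, went from 13.6 ± 0.25 to 16.2 ± 0.38 TPM (log2 fold change 0.24, limma adjusted p = 0.0176). STAT5B lost its call under 7 of 16 alternatives (adjusted p 0.0149 to 0.0891). These were the fit with a replicate block (0.058), quantile normalisation, both fits with the GC and length trend removed, and leaving out shControl replicate 2 (0.051), shCTSZ replicate 2 (0.0618) or shCTSZ replicate 3 (0.0577). TYK2, a JAK kinase that also binds gp130, was the most abundant of the list (143 ± 10 and 128 ± 6.9 TPM) and did not pass (adjusted p = 0.0934). STAT5A and STAT6 did not reach 1 TPM in any library.

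Inhibitors of the pathway went both ways. Of 12 tested genes 6 rose and 2 fell, where 19.8% of all tested genes rose and 14.7% fell, and the median log2 fold change of the list was 0.23, beside 0.04 over all tested genes. With the GC and length trend removed, 5 were higher and 1, PTPN2, was lower, against 18.5% and 11.8% of all genes in that fit. The 2 that fell were PTPN2, from 46.2 ± 0.29 to 39.2 ± 2.8 TPM (log2 fold change -0.23), and PIAS3, from 30.5 ± 1.4 to 26.3 ± 0.61 TPM (-0.21). PIAS3 lost its call in both trend-removed fits. SOCS7 rose from 13.5 ± 0.66 to 20.4 ± 2.1 TPM (log2 fold change 0.55, limma adjusted p = 0.00389). SOCS5 rose from 5.10 ± 0.28 to 7.64 ± 0.68 TPM (log2 fold change 0.50, or 0.33 in the trend-removed fit), and both are relatives of SOCS3. PTPN1, a phosphatase of JAK kinases, rose from 44.6 ± 1.9 to 53.1 ± 1.0 TPM (log2 fold change 0.25, or 0.12 in the trend-removed fit). PIAS1, an inhibitor of STAT factors, rose from 6.71 ± 0.56 to 9.28 ± 0.52 TPM, and lost its call in the trend-removed fit with the longest transcript (adjusted p = 0.058, the highest of its alternatives, which began at 0.0101).

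Among 7 tested adaptors that link gp130 to the RAS and PI3K pathways, 2 rose and 1 fell (median log2 fold change 0.08). Of all tested genes 19.8% rose and 14.7% fell. PTPN11, which encodes the phosphatase SHP2 that docks on gp130 at the same site as SOCS3, rose from 35.1 ± 3.7 to 51.3 ± 1.6 TPM (log2 fold change 0.54, limma adjusted p = 0.00298). SOS1, the RAS exchange factor, rose from 7.75 ± 0.78 to 10.7 ± 0.21 TPM (log2 fold change 0.42, or 0.23 in the trend-removed fit with the longest transcript). SHC1, an adaptor, went from 268 ± 3.7 to 250 ± 6.1 TPM (a log2 difference of -0.10, limma adjusted p = 0.0465), and this call was lost under 11 of 16 alternatives (adjusted p 0.00735 to 0.764), among them leaving out any 1 library.

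Genes known in other cells as targets of STAT3 or IL-6 were divided. Of 18 tested genes 8 fell and 4 rose, with a median log2 fold change of -0.26 beside 0.04 over all genes, of which 14.7% fell and 19.8% rose. With the GC and length trend removed, 6 were lower and 5 higher, against 11.8% and 18.5% of all genes in that fit. Most of them also answer to other pathways. BCL3, an NF-kB cofactor, fell from 24.6 ± 1.8 to 12.1 ± 1.0 TPM (log2 fold change -0.97, limma adjusted p = 4.64e-04), and the survival gene BCL2L1 fell from 638 ± 15 to 518 ± 19 TPM (log2 fold change -0.30, or -0.19 in the trend-removed fit with the longest transcript). MCL1, another survival gene of the BCL2 family, rose from 234 ± 21 to 395 ± 13 TPM (log2 fold change 0.76). SAA1, an acute-phase protein gene, rose from 9.01 ± 1.2 to 22.4 ± 3.0 TPM (log2 fold change 1.22), although SAA1 has a close copy, SAA2, and the division of their reads is uncertain. SAA2 was listed at 1.95 ± 1.3 TPM in shControl and 0.753 ± 0.22 TPM in shCTSZ, with overlapping groups (log2 fold change -0.66, limma adjusted p = 0.169). Of the hepatic acute-phase genes, LBP, FGA, HP, A2M and HAMP stayed under 1 TPM in every library and CRP was listed at 0. FGB ranged from 1.25 to 3.28 TPM over all libraries, FGG from 0.12 to 1.94 TPM and SERPINA3 from 0.23 to 1.57 TPM.

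The factors known to drive IL6 transcription did not move as one. Of 13 tested genes 4 rose and 3 fell (median log2 fold change -0.03), where 19.8% of all tested genes rose and 14.7% fell. The trend-removed fit had 3 higher and 1 lower, against 18.5% and 11.8% of all genes in that fit. The NF-kB subunits RELA and NFKB1 and the C/EBP factor CEBPB, whose motifs are among those in the IL6 window above, had overlapping groups: RELA held 134 ± 8.3 and 130 ± 3.0 TPM, NFKB1 30.5 ± 1.4 and 30.3 ± 1.8 TPM, and CEBPB 196 ± 9.5 and 192 ± 6.4 TPM. In the trend-removed fits the adjusted p of CEBPB was 0.0602, or 0.0475 with the longest transcript, with the shCTSZ value higher. These 3 genes were singled out after their values were seen. JUN, an AP-1 subunit, rose from 174 ± 2.8 to 205 ± 8.4 TPM (log2 fold change 0.24, limma adjusted p = 0.00442). FOSL1, its partner, fell from 197 ± 3.8 to 173 ± 4.4 TPM (log2 fold change -0.19), a call lost in both trend-removed fits (adjusted p = 0.715 and 0.671, with a lowest value of 0.00317 among its alternatives). TNF, a cytokine that induces IL6, fell from 6.72 ± 0.79 to 4.38 ± 0.30 TPM (log2 fold change -0.52, or -0.32 with a pseudocount of 5). SP1, which binds GC boxes, rose from 18.8 ± 1.8 to 24.2 ± 1.3 TPM (log2 fold change 0.35). The call of SP1 was lost without shControl replicate 2 (adjusted p = 0.0525), without shCTSZ replicate 3 (0.0536) and in the trend-removed fit with the longest transcript (0.0927), the lowest of its alternatives being 0.00933.

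**Figure D4:**
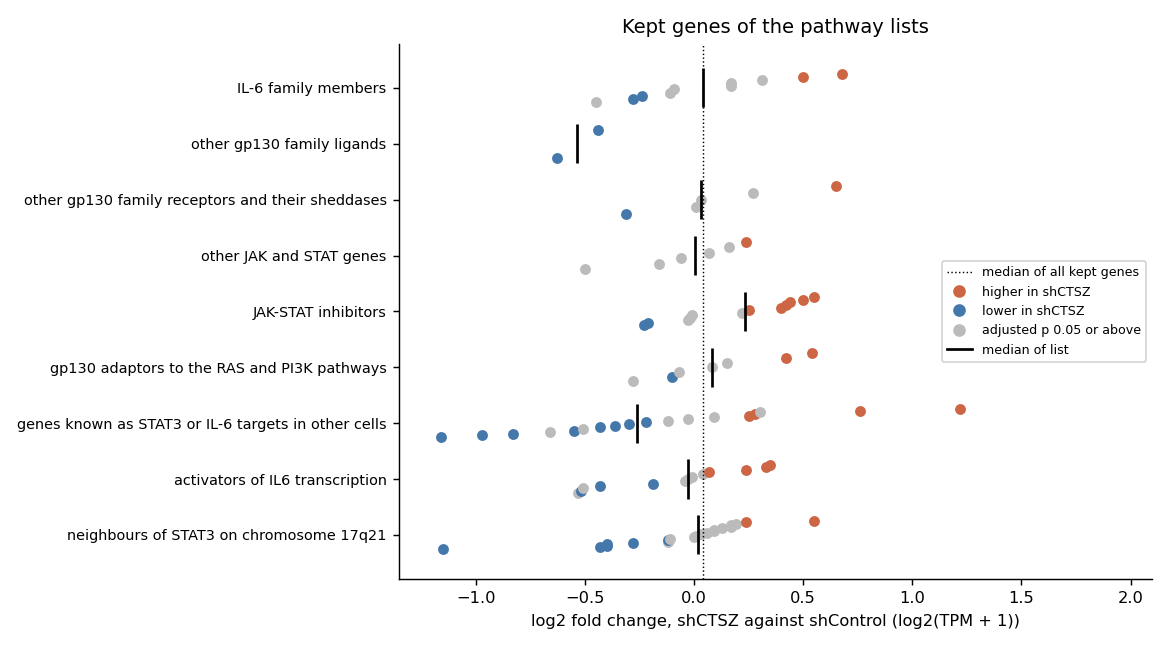
Log2 fold change of every tested gene in 9 lists (points; orange higher and blue lower in shCTSZ at a limma adjusted p under 0.05, grey not past it), the median of each list (bar) and the median of all tested genes (dotted line, 0.04). Some genes are in 2 lists. The inhibitors lie on both sides of 0, with their median to the right of it. The STAT3 or IL-6 targets also lie on both sides, with their median to the left.

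Because STAT3 was listed in a line known to lack it, its neighbours were read as well, 28 genes with STAT3 among them from CNP to EZH1 (chromosome 17, 41966741 to 42745049). Of these, 20 reached a mean of 1 TPM, and expressed genes lay on both sides of STAT3. On 1 side STAT5B held 13.4 to 16.5 TPM and GHDC 14.3 to 16.6 TPM. On the other, CAVIN1 held 64.4 to 104 TPM, the proton pump gene ATP6V0A1 38.5 to 47.6 TPM and the coenzyme A synthase gene COASY 66.5 to 75.7 TPM. Genes at or near 0, such as STAT5A and HCRT, were interspersed with these. In the knockdown 2 of the 20 tested genes rose and 6 fell (median log2 fold change 0.02), where 19.8% of all tested genes were higher and 14.7% lower. With the GC and length trend removed, 5 were higher and 6 lower, against 18.5% and 11.8% of all genes in that fit. CAVIN1 rose from 65.6 ± 1.0 to 96.7 ± 7.1 TPM (log2 fold change 0.55, limma adjusted p = 8.98e-04). DHX58, an antiviral RNA sensor gene, fell from 3.65 ± 0.31 to 1.11 ± 0.32 TPM (log2 fold change -1.15, or -0.50 with a pseudocount of 5), and the histone acetyltransferase gene KAT2A fell from 55.2 ± 0.96 to 41.5 ± 2.1 TPM (log2 fold change -0.40, or -0.25 in the trend-removed fit with the longest transcript). The gamma-tubulin gene TUBG2 fell from 55.4 ± 3.5 to 41.6 ± 2.0 TPM, a call lost in the trend-removed fit with the longest transcript (adjusted p = 0.1; its lowest alternative was 0.00187).

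**Figure D5:**
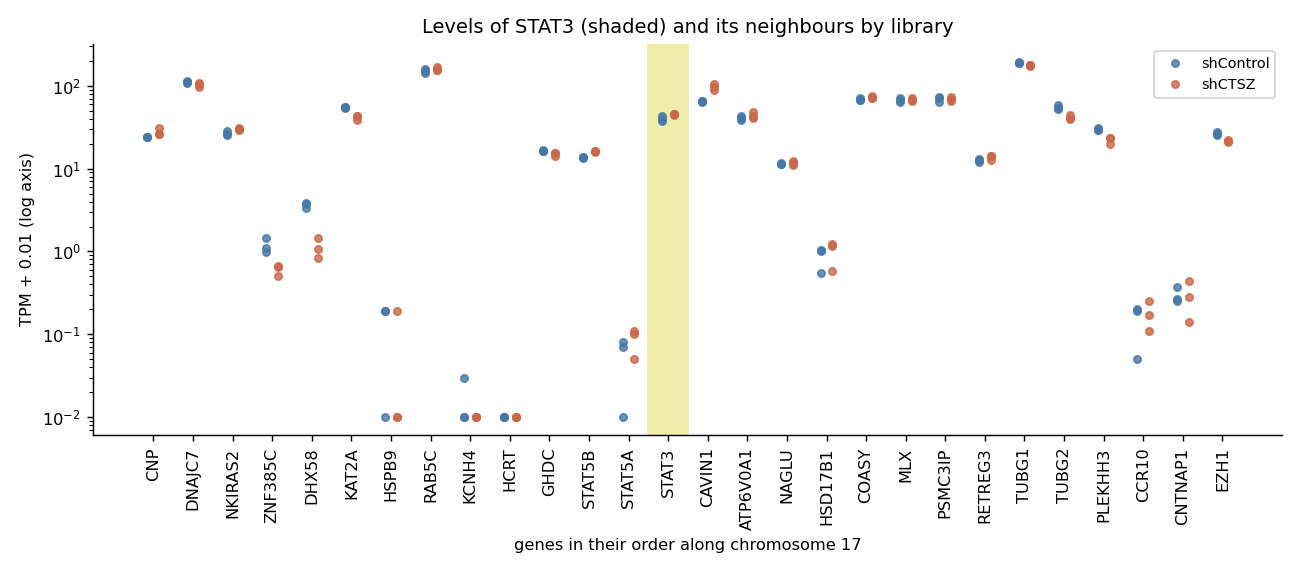
TPM + 0.01 on a log axis of STAT3 (shaded) and 27 neighbours in their order along chromosome 17, 1 point per library, blue for shControl and orange for shCTSZ. STAT3 and its neighbours STAT5B, CAVIN1 and ATP6V0A1 lie above 10 TPM in all 6 libraries, and STAT5A lies below 1 TPM.

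OSMR had the smallest adjusted p of the members, so the genes with the most similar profile were listed for it. Likeness was the root mean square distance over the 6 libraries between log2(TPM + 1) values, each taken relative to the gene's shControl mean, over 9694 protein-coding genes that average 5 TPM or more. The closest were CHST14 (distance 0.026), RBMS2 (0.028), KLF6 (0.028), BRIP1 (0.031) and PAK2 (0.034), and their log2 fold changes ranged from 0.49 to 0.53. The list is a description and no test.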

How the data were processed

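For 6 libraries (3 shControl, 3 shCTSZ) the authors deposited gene-level TPM in 1 table. The tools fastp and RSEM, with no version, and the build GRCh38.p13 stand in the submitters' processing notes. For aligner, annotation release and strandedness the answer is: not given in the sources used here. Columns were assigned by name and groups taken from the sample descriptions. Symbols were paired through Ensembl gene IDs, positions, GC content and transcript length came from GENCODE 29 (GRCh38), and promoters from RefSeq (GRCh38.p14).

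Differences were tested with limma 3.58.1 (R 4.3.3) on log2(TPM + 1), a model of group alone with a mean-variance trend, over 14874 rows averaging 1 TPM or more, with Benjamini-Hochberg adjustment at 0.05. TPM are not counts, so no count test was run. With 3 libraries a group, the smallest two-sided p of an exact permutation test is 0.1. The fit was tested on simulated data. The members and lists were chosen with earlier results of these data known. Named were all members and, per list, up to 4 genes with the smallest adjusted p among those that passed, or the 2 most abundant where none passed; genes outside this rule are given as values. Some listed genes are not reported here.

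Alternatives were pseudocounts of 0.1 and 5, no filter, a filter at a mean of 5 TPM, scaling by median of ratios, quantile normalisation, no trend, a replicate block, leaving out each library, and trend-removed fits, in which natural splines (5 degrees of freedom) of GC content and of log2 transcript length were subtracted per library, for the 96.3% of rows with both. A version of the latter with each gene's longest transcript was added after seeing the data.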

Additional observations from a re-analysis of the deposited data

How the results depend on the processing

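Of the 10 members, 4 passed the threshold, and 3 to 6 did under the 16 alternatives. The lowest count, 3, came with the GC and length trend removed and the highest, 6, without shControl replicate 1. Over all tested genes 5135 passed, and 3869 to 4416 did with 1 library left out. LIF lost its call with the GC and length trend removed (log2 fold change -0.18, or -0.21 with the longest transcript). CLCF1 (0.07 in both versions) and SOCS3 (0.08 and 0.05) changed sign there without passing the threshold. LIFR passed it without the mean-variance trend (0.31, adjusted p = 0.0278), JAK1 with a mean of at least 5 TPM (0.17, adjusted p = 0.0498) and SOCS3 under median-of-ratios scaling (-0.16). With 1 library left out, the log2 fold change ranged from -0.76 to -0.24 for IL11, 0.12 to 0.22 for JAK1 and 0.13 to 0.23 for STAT3. IL11 and LIFR were not tested at a mean of at least 5 TPM. Of 25 other named genes, CTSZ included, 361 of 399 values under alternatives kept direction and side of the threshold and 37 lost the call. FOSL1 changed sign with the trend of the longest transcript removed (0.03). Why these values moved was not tested.

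The replicate numbers come from the sample descriptions and are not said to mark a shared batch. The sample titles number the shCTSZ libraries on from the shControl libraries, so by title no libraries share a number. By the descriptions, same-numbered libraries did not deviate together (correlations of deviations from the group means -0.09, -0.02 and -0.04). With the replicate number as a block, 4026 genes passed, and the same number of members, 4, did (IL6 at -0.24, adjusted p = 0.0255). The depth is unknown, so low genes such as LIFR carry no counting error here. Transcript lengths are annotation values, not those used by the authors.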
